A study of Mus musculus with 9 samples.

Results

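The genes described here are 31 genes of epithelial junctions and epithelial identity, measured in 9 cultures re-derived from tumors that 4T1, a metastatic mouse breast carcinoma line, had formed in mice. They were chosen by name and not by a threshold, but with earlier results of these data known. The shares of all genes set beside them below are therefore a guide and not a test. They comprise 12 tight junction and polarity genes and 7 genes of cell adhesion and desmosomes. The rest are 4 genes of membrane serine proteases and their inhibitors and 8 regulators of splicing, transcription and membrane trafficking. All 31 were among the 19938 genes measured, each by 1 probe set. The 3 brain lines (4T1-BM2) were derived from brain metastases, the 3 lung lines (4T1-LM2) from lung metastases and the 3 primary lines (4T1-T2) from tumors at the primary site, and each carries the number of its mouse within its origin. Each tumor was taken from a different mouse, and the labels name no further treatment or genetic change in any group. The 9 lines went through thawing, culture and extraction together, with 1 array per line, so the values describe cells in culture. The lines of an origin share a name whose meaning the labels do not give. Where they shared a selected ancestor, 3 lines would count as fewer than 3 independent samples, and p-values measure the spread between these lines only.

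Epithelial cells are held together near their free surface by tight junctions, in which claudins and occludin span the membrane and scaffold proteins such as ZO-1 and cingulin link them to the actin cytoskeleton. Below them lie adherens junctions, built on E-cadherin, and desmosomes, which tie keratin filaments of neighbouring cells together. The membrane protease matriptase and the trypsin-like prostasin act at the cell surface and are held in check by the Kunitz-type inhibitors HAI-1 and HAI-2. The splicing factors of the Esrp family and transcription factors such as Grhl2, Ovol1 and Elf3 help to maintain the epithelial state. In carcinoma cells the expression of many epithelial genes is lost when cells take on mesenchymal features.

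The label of a carcinoma line was checked on epithelial markers. The keratin genes Krt8 and Krt18, which mark simple epithelium, lay between 12.43 and 13.03 on the log2 intensity scale in all 9 lines. The median of the probe sets with no gene symbol, used here as a guide to background, was 4.18. Krt8 and Krt18 belong to a list of 7 mammary epithelial markers, with Krt19, Krt14, Krt5, Epcam and Cdh1. The summed log2 level of that list was higher in all brain lines than in all others. It was 67.03 to 68.52 in brain, 63.89 to 64.80 in lung and 61.91 to 64.54 in primary lines. Epcam and Cdh1 are also among the 31 genes, and Krt14 and Krt19 are described below, so this sum is not separate from those results. Krt5 was the lowest of the list, at 4.16 to 4.68, close to the background guide. Of 36 marker genes of fibroblasts, endothelial cells, leukocytes, glia, neurons and lung epithelium, none passed in any comparison in limma (4 had an unadjusted p under 0.05 in brain against primary, 3 in brain against lung and 1 in lung against primary lines), and 11 lay below 4.18 in every line. Among the lists of these 36 genes, summed log2 levels overlapped between brain and primary lines in all but that of glia (30.87 to 31.77 in brain, 30.29 to 30.76 in primary lines). In the glia list the astrocyte genes Gfap and Aqp4 were at 4.11 to 4.53 and 3.43 to 3.77. Aldoc, a glycolytic enzyme of that list, was at 7.52 to 8.08 in brain and 6.95 to 7.34 in primary lines. The part of other cell types in the results was not tested. In such bulk samples, fewer cells of a type and less RNA per cell cannot be told apart.

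The brain lines stood above the other lines in a large share of these genes. In 12 of 31, namely Cldn3, Cldn4, Cldn7, Ocln, Cgn, Cdh1, St14, Esrp2, Grhl2, Ovol1, Elf3 and Rab25, all 3 brain lines were higher than all 6 others, and in none of the 31 were all 3 brain lines lower. Among all 19938 genes, 5.3% had the brain lines above all others and 5.05% had them below. The other 19 genes overlapped between brain lines and the rest. Against primary lines 6 of the 31 rose in brain lines and none fell (limma, p adjusted by Benjamini-Hochberg across the 19938 genes, under 0.05), where 3.13% of all genes were called, 1.56% higher and 1.57% lower. An unadjusted p under 0.05 was found for 15 of the 31, against 15.8% of all genes. The brain lines lay above all primary lines in 12 (9.36% of all genes) and below them in 1, Jup (8.47%). Against lung lines 6 rose and none fell, where 1.98% of all genes were called, 0.913% higher and 1.07% lower. Here 16 had an unadjusted p under 0.05 (14.9% of all genes), 14 lay above all lung lines (8.27%) and 2, Spint1 and Spint2, below them (8.63%). Both comparisons share the brain lines. Between lung and primary lines none of the 31 passed in limma, as none of all genes did (0.0%).

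**Figure D1:**
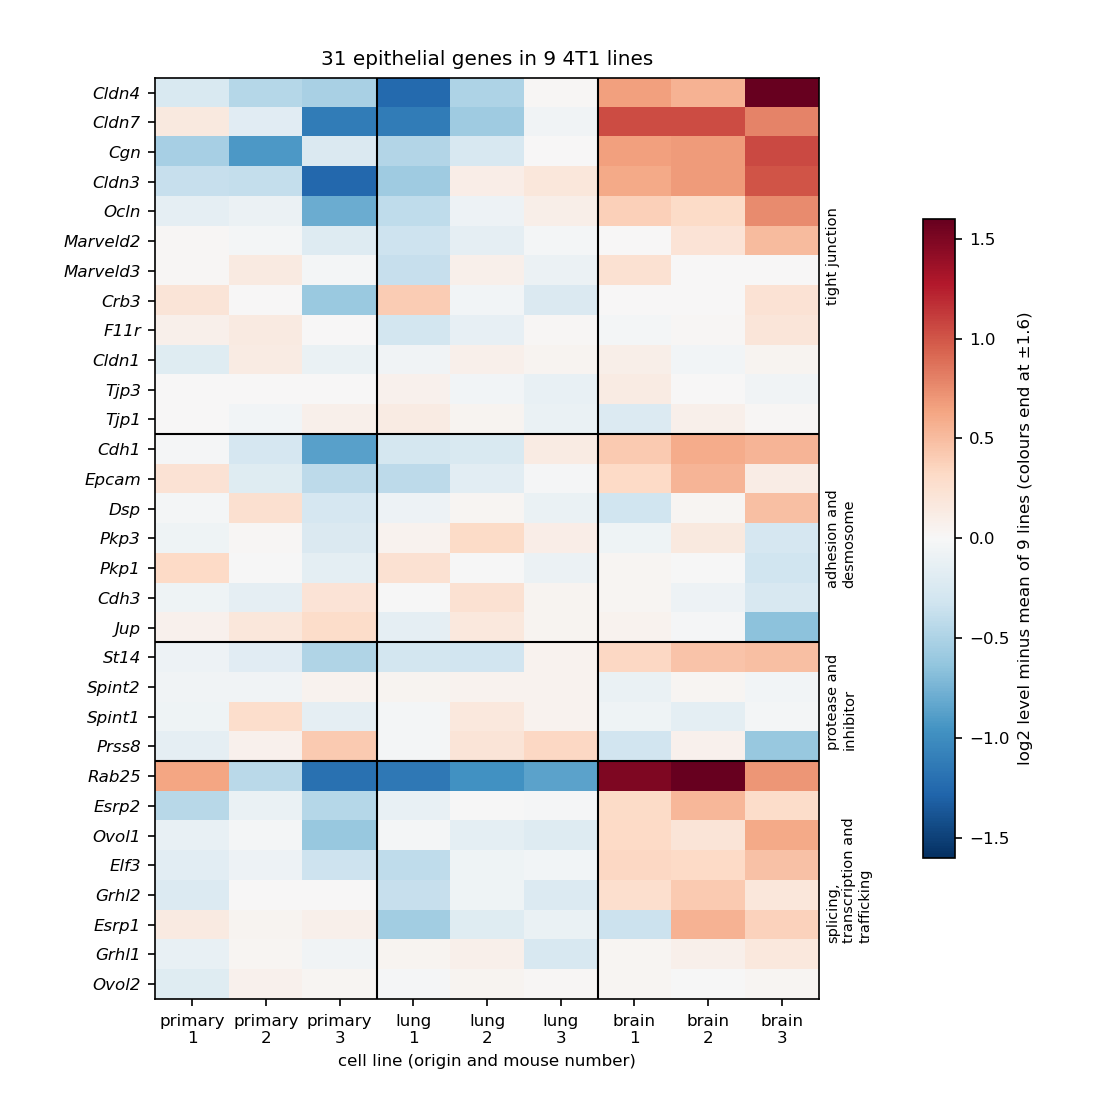
Log2 level of each of the 31 genes (rows, by group) in each of the 9 lines (columns), shown as the difference from the mean of that gene over the 9 lines. The upper rows of the tight junction and regulator groups are red in all 3 brain lines, while most adhesion and desmosome genes and the protease inhibitors show no such block.

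The promoters of the 5 genes with the largest differences between brain and primary lines, Rab25, Cldn3, Cldn4, Cgn and Cldn7, are shown because these genes were high in the same lines. Cldn3 and Cldn4 are direct neighbours, and Rab25 and Cgn lie on the same chromosome. Each is the 250 bases before the annotated start, 5′ to 3′ on the gene's own strand (RefSeq, GRCm38.p6), and for Cldn7, which has 2 annotated starts, before the more upstream one. Capitals mark CACCTG on either strand (read as CAGGTG on the other), the E-box bound by repressors of the Zeb and Snail families, and AACCNGTT on either strand, a form of the motif of Grainyhead-like factors.
Rab25, chr3:88548280-88548529, minus strand: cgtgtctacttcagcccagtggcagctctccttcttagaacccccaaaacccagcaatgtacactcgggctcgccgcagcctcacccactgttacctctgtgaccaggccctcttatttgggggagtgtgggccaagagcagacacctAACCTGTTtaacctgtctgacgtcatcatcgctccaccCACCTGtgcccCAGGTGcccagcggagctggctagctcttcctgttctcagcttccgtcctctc
Cldn3, chr5:134985964-134986213, plus strand: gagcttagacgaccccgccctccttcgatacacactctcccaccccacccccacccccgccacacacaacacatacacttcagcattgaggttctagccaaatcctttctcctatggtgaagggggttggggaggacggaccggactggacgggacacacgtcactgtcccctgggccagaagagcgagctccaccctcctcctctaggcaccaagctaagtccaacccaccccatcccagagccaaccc
Cldn4, chr5:134946935-134947184, minus strand: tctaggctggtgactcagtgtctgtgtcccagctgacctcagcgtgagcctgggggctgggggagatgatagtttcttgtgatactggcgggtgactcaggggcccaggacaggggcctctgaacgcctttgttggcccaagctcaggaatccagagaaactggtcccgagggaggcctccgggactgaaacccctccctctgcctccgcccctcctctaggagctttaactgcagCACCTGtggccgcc
Cgn, chr3:94786483-94786732, minus strand: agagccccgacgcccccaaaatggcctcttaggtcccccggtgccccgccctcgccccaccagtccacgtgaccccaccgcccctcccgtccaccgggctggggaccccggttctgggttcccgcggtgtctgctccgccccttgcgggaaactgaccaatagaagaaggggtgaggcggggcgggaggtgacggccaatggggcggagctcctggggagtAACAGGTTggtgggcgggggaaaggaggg
Cldn7, chr11:69964529-69964778, plus strand: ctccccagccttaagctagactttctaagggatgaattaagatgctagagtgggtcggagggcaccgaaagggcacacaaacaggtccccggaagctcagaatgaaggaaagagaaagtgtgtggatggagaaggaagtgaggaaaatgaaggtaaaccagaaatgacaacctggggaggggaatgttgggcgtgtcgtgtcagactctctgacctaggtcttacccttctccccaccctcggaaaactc

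The Rab25 window held CACCTG once on each strand, with first bases 64 and 53 bases before the start, and AACCTGTT at 102 bases. Cldn4 held 1 CACCTG, at 14 bases before the start. Cgn held none and had 1 AACCNGTT match, at 29 bases. The windows of Cldn3 and of the first Cldn7 start held neither, and the window of the second Cldn7 start held CACCTG at 97 and, on the other strand, at 57 bases. Promoters were matched for 20 of the 31 genes. CACCTG lay before at least 1 start in 10 of these 20, against 19.4% of 27025 genes with a promoter. It was present in 5 of 7 matched genes whose brain lines lay above all others and in 5 of the 13 others. In Cldn7 and Ocln, both among the 7, it lay only before the second of 2 annotated starts, so this split depends on counting any start. No promoter was matched for Cdh1, St14, Esrp2, Grhl2 and Ovol1, whose brain lines also lay above all others. AACCNGTT lay in 2 of 20, Cgn and Rab25, against 2.0% of all genes, and its full form AACCGGTT in none of 20, against 0.14%. In these windows a site of one motif never overlapped a site of the other. These matches describe letters in a window and not binding.

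Claudins form the strands of the tight junction, and those that differed most had large spreads within origins too. Cldn3, which encodes a barrier-forming claudin, was at 8.88, 8.87 and 7.98 in primary lines 1 to 3, at 8.68, 9.35 and 9.43 in lung lines and at 9.85, 9.92 and 10.26 in brain lines. All brain lines exceeded all others, with primary line 3 lowest. It was 2.70-fold higher in brain than in primary lines (log2 difference 1.43 ± 0.26, SE, 3 lines per origin, adjusted p = 0.0205), and its difference from lung lines was 0.86 ± 0.26 (adjusted p = 0.146). The call against primary lines was lost without brain line 2 (0.0598) or 3 (0.0712).

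Its neighbour Cldn4, also a barrier claudin, was at 9.72, 9.50 and 9.45 in primary lines, 8.72, 9.47 and 9.98 in lung lines and 10.61, 10.52 and 11.69 in brain lines. The brain lines did not overlap with the others, but brain line 3 lay far above the other brain lines and lung line 1 far below the other lung lines. The differences, 1.39 ± 0.35 from primary and 1.55 ± 0.35 from lung lines, did not pass (adjusted p = 0.0656 and 0.0555), and their 95% intervals ran from 0.61 to 2.16 and from 0.78 to 2.33. With the mouse number as a block the difference from lung lines passed, in the fit of all 9 arrays (0.0305) and in that of the 6 arrays compared (0.0349).

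Cldn7, a claudin found both at tight junctions and along the lateral membrane, was at 8.47, 8.14 and 7.20 in primary lines, 7.19, 7.75 and 8.26 in lung lines and 9.36, 9.36 and 9.11 in brain lines. The brain lines lay close together (SD 0.15), whereas the primary and lung lines were spread over more than 1 log2 unit each (SD 0.66 and 0.54). It was 2.91-fold higher in brain than in lung lines (1.54 ± 0.32, adjusted p = 0.0442), a call lost with the block (0.0594) and without any of the 6 brain and lung lines or primary line 2 (up to 0.152). Against primary lines the difference was 1.34 ± 0.32 (adjusted p = 0.0585). Cldn1, by contrast, lay between 2.96 and 3.28 in all lines, under the 4.18 background guide, and no change is reported for it.

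Cgn encodes cingulin, a cytoplasmic tight junction protein that binds ZO proteins and actomyosin. Its levels were 6.68, 6.30 and 6.98 in primary lines, 6.75, 6.96 and 7.22 in lung lines and 7.88, 7.89 and 8.27 in brain lines. Every brain line was above every other line, and the primary and lung lines overlapped. Cgn was 2.57-fold higher in brain than in primary lines (1.36 ± 0.18, adjusted p = 0.00569) and 2.05-fold higher than in lung lines (1.04 ± 0.18, adjusted p = 0.0226). The call against primary lines held in all 18 alternatives that were run, while that against lung lines was lost without brain line 2 (0.0591), brain line 3 (0.0773), lung line 1 (0.0883) or lung line 2 (0.101).

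Ocln encodes occludin, a membrane protein of the tight junction strands. It was at 6.54, 6.60 and 5.90 in primary lines, 6.29, 6.60 and 6.78 in lung lines and 7.08, 6.99 and 7.44 in brain lines. The brain lines lay above all others, but the differences of 0.82 ± 0.20 from primary (adjusted p = 0.0610) and 0.61 ± 0.20 from lung lines (adjusted p = 0.176) did not pass. The adjacent gene Marveld2 encodes tricellulin, which sits where the corners of 3 cells meet. Its means were 7.02 ± 0.12 (SD, n = 3) in primary, 6.93 ± 0.15 in lung and 7.34 ± 0.25 in brain lines, with differences of 0.32 ± 0.13 and 0.41 ± 0.13 that did not pass (adjusted p = 0.265 and 0.158).

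Several other tight junction genes passed in no comparison. Tjp1, which encodes ZO-1, ranged from 9.11 to 9.47 over the 9 lines, with a difference of -0.06 ± 0.10 (SE) between brain and primary lines and a 95% interval from -0.27 to 0.16. Tjp3 (ZO-3) ranged from 5.21 to 5.47, and its interval ran from -0.14 to 0.19. All 3 primary lines and brain line 2 had exactly the same Tjp3 value, 5.34, below the median gene level of 5.78, so this interval rests partly on tied values. F11r, which encodes the junctional adhesion molecule JAM-A, ranged from 9.29 to 9.78, with an interval from -0.23 to 0.19. Changes as large as those of Cgn or Cldn3 fall outside these intervals. Marveld3, of the same family as occludin, differed by 0.05 ± 0.12, and Crb3, a polarity protein of the apical membrane, by 0.21 ± 0.21, with 6.25 in lung line 1 and 5.25 in primary line 3 as its extremes. In this group of 12 genes 2 rose against primary lines and 2 against lung lines, with median log2 differences of 0.26 and 0.32, where the medians of all genes were 0.0049 and -0.0096.

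**Figure D2:**
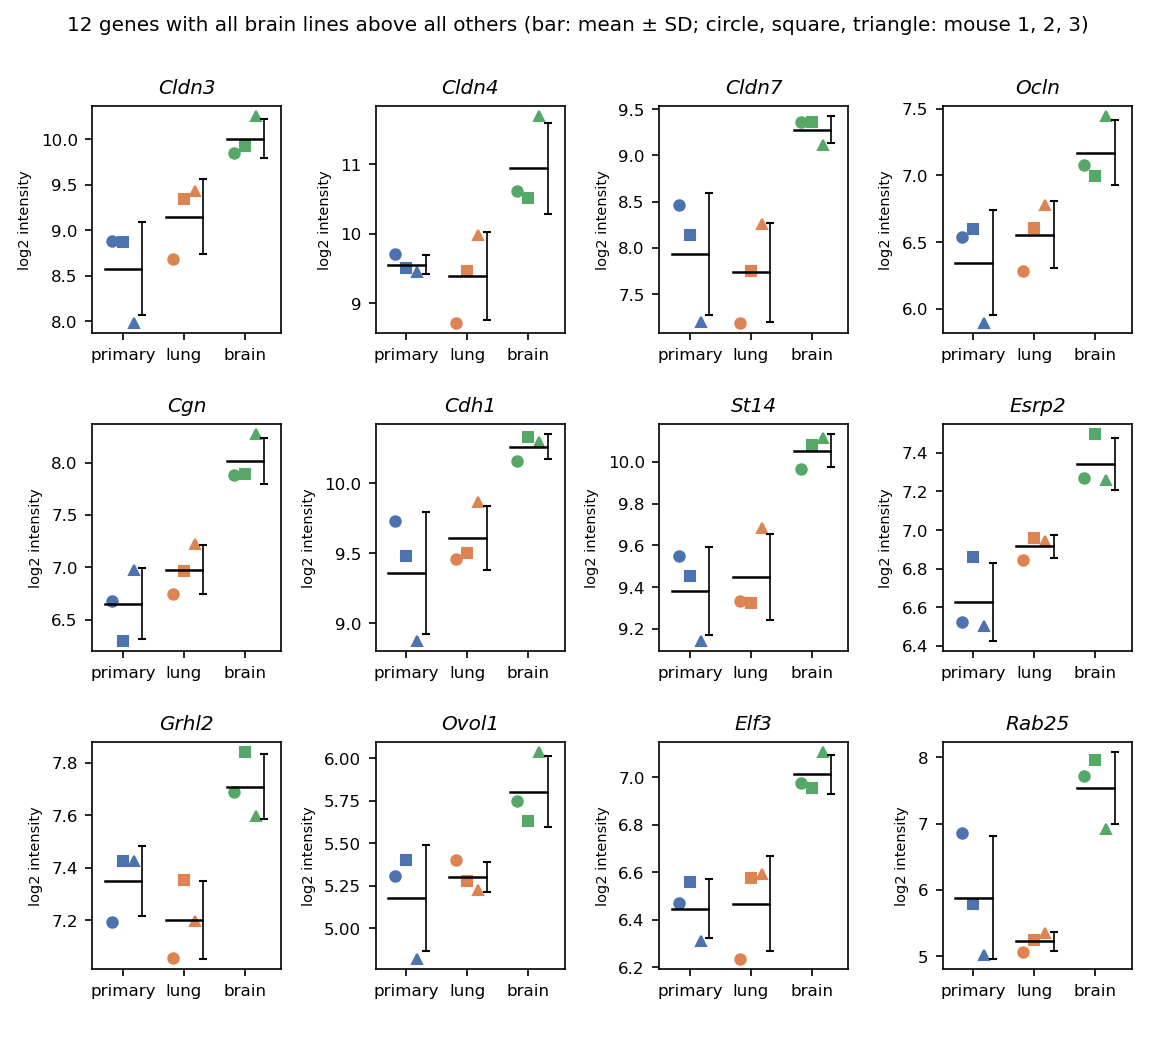
Log2 intensity of the 12 genes in which every brain line lay above every primary and lung line, 1 panel per gene, with a point per line, a bar at the mean and whiskers of 1 SD (3 lines per origin). Vertical axes differ between panels, and Cldn7 and Rab25 show wide spreads among primary lines.

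Among the adhesion genes, Cdh1 encodes E-cadherin, the core of the adherens junction. It was at 9.73, 9.48 and 8.87 in primary lines, 9.45, 9.50 and 9.87 in lung lines and 10.16, 10.33 and 10.29 in brain lines. The brain lines were tightly grouped (SD 0.09) above all others, and primary line 3 was lowest. Cdh1 was 1.87-fold higher in brain than in primary lines (0.90 ± 0.19, adjusted p = 0.0386), and the difference from lung lines, 0.65 ± 0.19, did not pass (adjusted p = 0.134). The call was lost in 8 of the 9 fits that left out 1 line, all but the one without primary line 1, with adjusted p up to 0.113 without brain line 2. Cdh3, the gene of P-cadherin and the direct neighbour of Cdh1, lay far lower, between 4.90 and 5.40 in all lines, not far above the 4.18 background guide. Its differences of -0.11 ± 0.12 from primary and -0.20 ± 0.12 from lung lines did not pass (adjusted p = 0.765 and 0.499).

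Epcam, which encodes the epithelial cell adhesion molecule, was at 9.86, 9.42 and 9.21 in primary lines, 9.20, 9.45 and 9.61 in lung lines and 9.94, 10.17 and 9.74 in brain lines. Primary line 1 lay within the brain lines, and the brain and lung lines did not overlap. Neither difference passed (0.45 ± 0.17 from primary, adjusted p = 0.230; 0.53 ± 0.17 from lung lines, adjusted p = 0.179).

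Of the 4 desmosome genes among the 31, Dsp, Jup, Pkp1 and Pkp3, none passed in either comparison. Dsp, the gene of desmoplakin, which anchors keratin filaments, was at 7.17, 7.52 and 7.96 in the brain lines, a wider range than the 7.37 to 7.52 of the lung lines, and differed from primary lines by 0.08 ± 0.19. Jup encodes plakoglobin, shared by desmosomes and adherens junctions. It was at 8.85, 8.98 and 9.08 in primary, 8.65, 8.96 and 8.83 in lung and 8.85, 8.77 and 8.14 in brain lines, so that brain line 3 alone was far below the rest, and the difference of -0.38 ± 0.17 from primary lines did not pass (adjusted p = 0.314). The plakophilin genes Pkp1 and Pkp3, whose proteins link desmosomal cadherins to desmoplakin, differed by -0.15 ± 0.14 and 0.03 ± 0.12. In the 7 genes of adhesion and desmosomes 1 rose against primary and none passed against lung lines, where 2 had an unadjusted p under 0.05, and the medians were 0.03 and -0.15.

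Among the surface proteases and their inhibitors only St14 passed. St14 encodes matriptase. It was at 9.55, 9.45 and 9.14 in primary lines, 9.33, 9.33 and 9.68 in lung lines and 9.96, 10.08 and 10.11 in brain lines, with no overlap between brain lines and the rest. It was 1.59-fold higher in brain than in primary lines (0.67 ± 0.13, adjusted p = 0.0225) and 1.52-fold higher than in lung lines (0.61 ± 0.13, adjusted p = 0.0423). The call against primary lines was lost without brain line 2 or 3 or primary line 2 or 3 (up to 0.0722). That against lung lines was lost with the block (0.0621) and in 7 of 9 fits without 1 line, all but those without lung line 3 or primary line 3 (up to 0.165).

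Prss8, the gene of prostasin, had its lowest value in brain line 3, at 6.98, and its highest in primary line 3, at 8.01. Its means were 7.71 ± 0.28 (SD, n = 3) in primary, 7.76 ± 0.18 in lung and 7.31 ± 0.34 in brain lines, and neither difference passed (-0.40 ± 0.19, SE, adjusted p = 0.341, and -0.45 ± 0.19, adjusted p = 0.287). Spint1 (HAI-1) ranged from 9.81 to 10.24 and Spint2 (HAI-2) from 11.25 to 11.42 over all 9 lines. Their differences between brain and primary lines were -0.11 ± 0.11 and -0.02 ± 0.07, and the 95% interval of Spint2, from -0.17 to 0.13, is the narrowest of the 4 protease and inhibitor genes.

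**Figure D3:**
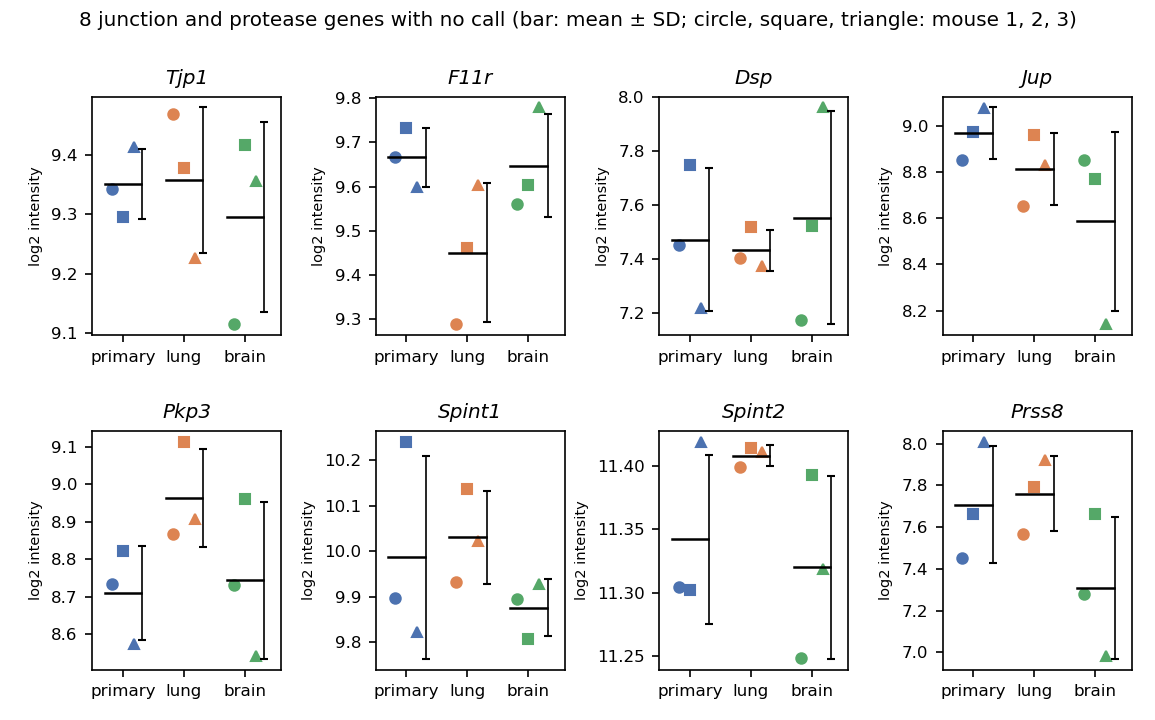
Log2 intensity of 8 junction, desmosome, protease and inhibitor genes that passed in no comparison, 1 panel per gene, with a point per line, a bar at the mean and whiskers of 1 SD (3 lines per origin). Vertical axes differ between panels and several span less than 0.5, and brain line 3 is the lowest point for Jup, Pkp3 and Prss8.

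Of the regulators, Rab25, which encodes a small GTPase that recycles membrane proteins in epithelial cells, had the largest difference of all 31 genes. It was at 6.85, 5.79 and 5.02 in primary lines, 5.07, 5.24 and 5.36 in lung lines and 7.71, 7.96 and 6.92 in brain lines. The lung lines were low and close together (SD 0.15), the primary lines spanned almost the whole distance between lung and brain lines (SD 0.92), and primary line 1 nearly reached brain line 3. Rab25 was 4.96-fold higher in brain than in lung lines (2.31 ± 0.40, adjusted p = 0.0221), a call lost without brain line 1 or 2 or any lung line (up to 0.0957). Against primary lines the difference was 1.65 ± 0.40 (adjusted p = 0.0610), and it passed without primary line 1 (0.0183). Lung and primary lines differed by -0.66 ± 0.40 (adjusted p = 0.975).

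The epithelial splicing regulators differed from each other. Esrp2 was at 6.52, 6.86 and 6.50 in primary lines, 6.85, 6.96 and 6.94 in lung lines and 7.27, 7.50 and 7.26 in brain lines. The order was primary, lung, brain, with an overlap only between primary and lung lines. It was 1.64-fold higher in brain than in primary lines (0.71 ± 0.11, adjusted p = 0.00935), a call that held without any 1 line and was lost with only the 6 arrays compared (0.0583). The difference from lung lines was 0.43 ± 0.11 (adjusted p = 0.0889, 0.0342 with the block in all 9 arrays and 0.0748 with the block in the 6 arrays compared).

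Esrp1 was at 9.26, 9.16 and 9.20 in primary lines, 8.57, 8.92 and 9.02 in lung lines and 8.78, 9.68 and 9.49 in brain lines. Brain line 1 lay below all primary lines while the other brain lines lay above them. The differences of brain lines from primary (0.11 ± 0.21) and lung lines (0.48 ± 0.21, adjusted p = 0.309) did not pass, and without brain line 1 the latter did (0.0396).

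Grhl2 encodes a Grainyhead-like factor that binds the promoters and enhancers of many junction genes. It was at 7.20, 7.43 and 7.43 in primary lines, 7.06, 7.35 and 7.20 in lung lines and 7.69, 7.84 and 7.60 in brain lines. All brain lines were above all others by a small margin. It was 1.42-fold higher in brain than in lung lines (0.51 ± 0.10, adjusted p = 0.0389), a call that was lost in 8 of 9 fits without 1 line, all but the one without primary line 1 (up to 0.120). The difference from primary lines was 0.36 ± 0.10 (adjusted p = 0.103).

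Elf3, an Ets-family factor of epithelial cells, was at 6.47, 6.56 and 6.31 in primary lines, 6.24, 6.57 and 6.59 in lung lines and 6.98, 6.96 and 7.11 in brain lines. The brain lines lay within 0.15 of each other and above all others. Elf3 was 1.48-fold higher in brain than in primary lines (0.57 ± 0.11, adjusted p = 0.0243) and 1.46-fold higher than in lung lines (0.54 ± 0.11, adjusted p = 0.0352). The first call was lost without any 1 of the brain and primary lines (up to 0.0837), and the second in all fits without 1 line but that without primary line 3 (up to 0.117).

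Ovol1, a zinc finger repressor that holds down mesenchymal genes, was at 5.31, 5.40 and 4.82 in primary lines, 5.40, 5.28 and 5.23 in lung lines and 5.75, 5.63 and 6.04 in brain lines. Its differences of 0.63 ± 0.15 and 0.50 ± 0.15 did not pass (adjusted p = 0.0610 and 0.146), although the brain lines lay above all others. Its relative Ovol2 ranged only from 5.76 to 6.02 over the 9 lines, and Grhl1 from 4.33 to 4.75, and neither passed in any comparison. In this group of 8 genes 2 rose against primary and 3 against lung lines. All 8 differences were positive in both comparisons, which share the brain lines, as were 10312 and 9315 of all 19938. Some lay near 0: that of Ovol2 from lung lines was 0.0037 ± 0.0774 and changed sign in 4 of 18 alternatives.

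**Figure D4:**
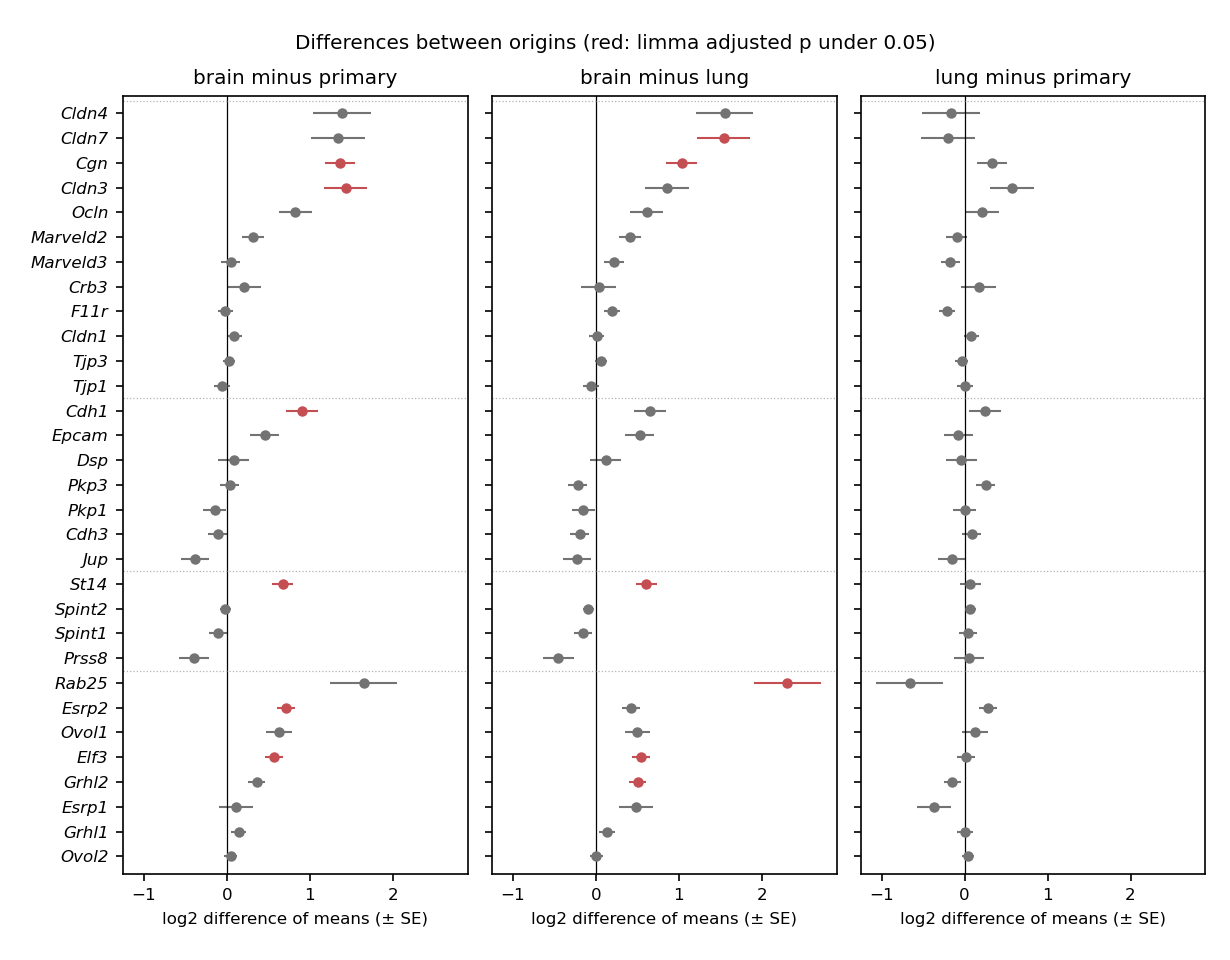
Difference of mean log2 level between origins for each of the 31 genes, with whiskers of 1 SE from the limma model (3 lines per origin), and red points where the adjusted p was under 0.05. The brain minus primary and brain minus lung panels share the brain lines, and in the lung minus primary panel no gene is red.

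Lung lines were set against primary lines in the same model. None of the 31 genes passed, and 2 had an unadjusted p under 0.05, where 4.74% of all genes did. These were Esrp2 (0.29 ± 0.11) and F11r (-0.21 ± 0.09), both with adjusted p = 0.975. The largest differences in size were those of Rab25 and of Cldn3 (0.57 ± 0.26, 95% interval from -0.01 to 1.16). The lung lines lay above all primary lines in 1 gene, Pkp3 (4.88% of all genes), and below them in 1, Esrp1 (3.84%). The median over the 31 genes was 0.02 and that of all genes 0.013. The 95% interval of Elf3 ran from -0.22 to 0.26 and that of Cgn from -0.08 to 0.74, so differences as large as those between brain and primary lines lie outside the intervals of these 2 genes and of Cldn3.

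Lines of the same origin differed in many of these genes at once. Primary line 3 was the lowest of its origin, ties included, in 20 of the 31 genes, and lung line 1 in 23, against 39.3% and 44.5% of all genes. Averaged over the 31 genes, the deviation from the mean of the 9 lines was -0.04, -0.07 and -0.29 in primary lines 1 to 3, -0.25, -0.08 and -0.04 in lung lines and 0.20, 0.29 and 0.28 in brain lines. Lung line 1 and brain line 3 also had the widest spread around the gene medians over all genes (interquartile range 0.164 and 0.178, against 0.0886 to 0.126 in the others), and the part of array quality in these values was not tested. Without lung line 1 the count of genes called against lung lines was 0, and without brain line 3 it was 1. In each of these fits 13 of the 31 had an unadjusted p under 0.05. Calls over all genes against lung lines fell too, from 395 to 136 and 217. Without primary line 3 there were 3 calls against primary lines, and 366 instead of 624 over all genes. By group, the tight junction genes were highest in brain line 3 (0.52) and the regulators in brain line 2 (0.48), and the adhesion and desmosome genes were below their mean in brain line 3 (-0.05).

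**Figure D5:**
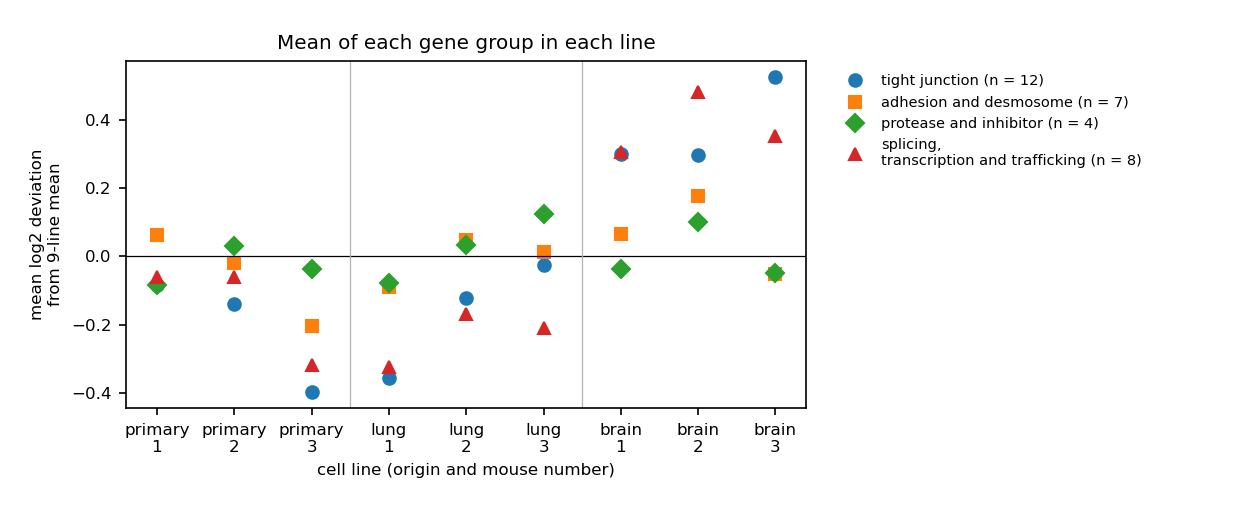
Mean deviation of each gene group from its mean over the 9 lines, in log2 units, for each line. Tight junction genes and regulators lie above 0.29 in all 3 brain lines and below 0 in all others, while the other groups stay between -0.20 and 0.18.

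Other genes of the same structures gave a mixed picture. Of 38 further junction genes, 5 rose and 1 fell in brain against primary lines (1.56% and 1.57% of all genes), with a median of 0.04. Against lung lines 1 rose and 1 fell (0.913% and 1.07% of all genes). The largest rise was that of Pard6b, a subunit of the polarity complex that works with Crb3 (1.30 ± 0.18 against primary, adjusted p = 0.00569, and 1.02 ± 0.18 against lung lines, adjusted p = 0.0215). Nectin2 (0.96 ± 0.22), an adhesion molecule, the plakophilin gene Pkp2 (0.93 ± 0.19), the claudin gene Cldn12 (0.64 ± 0.13) and Pkp4 (0.45 ± 0.10) rose against primary lines. Cldn2, which encodes a pore-forming claudin, was called lower in both comparisons, at mean levels of 3.64 in brain, 4.15 in lung and 4.04 in primary lines, all below the 4.18 median of unnamed probe sets.

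Of 29 further epithelial identity genes, 4 rose and 2 fell against primary lines (1.56% and 1.57% of all genes) and 4 rose against lung lines (0.913%). The brain lines lay above all primary lines in 9 of the 29 (9.36% of all genes) and below them in 6 (8.47%). They lay above all lung lines in 7 (8.27%) and below them in 5 (8.63%). The basal keratin genes Krt14 (1.62 ± 0.22 and 1.84 ± 0.22) and Krt17 (1.55 ± 0.27 and 1.50 ± 0.27) and Fermt1, which encodes the integrin-binding protein kindlin-1 (1.02 ± 0.20 and 0.96 ± 0.20), rose in both. Krt19, a simple epithelial keratin, rose against primary lines (1.27 ± 0.25), and Lad1, of the basement membrane zone, against lung lines (0.43 ± 0.07). The falls against primary lines were those of Cd24a, a surface glycoprotein of mammary epithelium (-0.58 ± 0.07), and the transcription factor gene Tfap2a (-0.55 ± 0.08). Among 13 genes linked to membrane serine proteases only Prss22, a trypsin-like protease, was called. It rose in both comparisons (0.69 ± 0.10 and 0.49 ± 0.10), where 1.56% and 0.913% of all genes were called higher.

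A list of 13 genes, of repressors of epithelial genes and of other factors linked to mesenchymal features, was measured for comparison. Only Foxc2, a forkhead factor of mesenchymal cells, was called. It fell by 1.07 ± 0.08 against primary (adjusted p = 8.7e-04) and by 0.93 ± 0.08 against lung lines (adjusted p = 0.00203). Among all genes 1.57% were called lower against primary and 1.07% against lung lines. The medians of the 13 were -0.17 and -0.12, and 3 had an unadjusted p under 0.05 in each comparison (15.8% and 14.9% of all genes). The brain lines lay below all primary lines in 3 (8.47% of all genes) and above them in 1 (9.36%). They lay below all lung lines in 4 (8.63%) and above them in 0 (8.27%). Zeb1, the zinc finger repressor that binds CACCTG, was at 5.27 in all 3 brain lines and between 5.07 and 5.75 in the others, and Snai2, of the Snail family, at 4.15 to 4.18 in brain and 3.85 to 4.90 in the other lines. Neither was called. Of 13 mesenchymal genes none passed in limma in either comparison, 6 and 3 had an unadjusted p under 0.05, and the medians were -0.19 and -0.07. Only 1 of the 13 differences was positive in each comparison, against 10312 and 9315 of all 19938. The brain lines lay below all primary lines in 4 (8.47% of all genes) and above them in 0 (9.36%). They lay below all lung lines in 3 (8.63%) and above them in 1 (8.27%).

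Many calls among the 31 genes were lost when 1 line was left out. Calls over all genes moved as well, from 624 to values from 273 to 556 against primary lines. Against lung lines they moved from 395 to values from 69 to 417. Among the 6 genes called against primary lines, only the calls of Cgn and Esrp2 held in all 9 fits that left out 1 line, and the count was 2 without brain line 2 or brain line 3 and 3 without primary line 2 or primary line 3. Against lung lines leaving out brain line 1, 2 or 3 gave counts of 2, 0 and 1, leaving out lung line 1, 2 or 3 gave 0, 0 and 2, and leaving out primary line 1 or 2 gave 4 and 3, and with an unadjusted p under 0.05 it was at least 13 in each. All 12 calls kept their direction in all 18 alternatives.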

How the data were processed

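Each of the 9 lines was measured on 1 Affymetrix mouse gene array. The deposited values are log2 intensities per probe set, which, per the submitters' processing notes, come from RMA. The log base is read from the range of the values, and neither the RMA version nor a genome build is stated (not given in the sources used here). These arrays give no depth, and precision is limited by their number. The RMA summary gives some lines exactly equal values (12 of the 31 genes have such ties, as have 57.2% of all genes).

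Of 35557 probe sets, 21789 had 1 gene symbol in the platform annotation, 1621 several and 12147 none. The probe set with the highest mean was kept per symbol, which left 19938 genes. limma 3.58.1 (R 4.3.3; lmFit, eBayes, two-sided) was fitted to all genes and 9 arrays with a coefficient per origin, 6 residual and 3.72 prior degrees of freedom, and calls used p-values adjusted by Benjamini-Hochberg over the 19938, under 0.05. The same function was tested on simulated data for brain against primary lines, where it called 194 of 200 genes changed by a log2 value of 1 among 19938, with 9 false calls. Errors after ± are standard errors unless marked SD. With 3 lines per origin an exact permutation test cannot go below p = 0.1, so none was used.

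The 31 genes, the further lists and the markers were chosen with earlier results of these data known. The rule named all 31 genes, with values per line for called ones and for Cdh1, Epcam, Esrp1 and Grhl2, and up to 6 called genes of each further list. Per-line values of Cldn4, Ocln, Ovol1, Jup and Dsp, and the levels of Zeb1 and Snai2, were added after their values were seen. The RefSeq tables of GRCm38.p6 were used for names, neighbours and promoters.

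Mouse numbers 1 to 3 occur in each origin, and the series' design text gives 9 separate mice. For brain and lung lines, the deviations of same-numbered lines from their origin's mean had correlations across genes of 0.284, 0.130 and 0.241, each over 0.1, so the block of mouse number is given beside a result against lung lines where it changes the call. For brain and primary lines they were 0.067, -7e-04 and -0.04, and for lung and primary lines 0.221, 0.0785 and 0.008. With separate mice the number is no pairing by animal. What same-numbered lines have in common is not stated and was not tested. The alternatives were 2 further normalizations, a filter on dim genes, another variance model, array weights, the block, leaving out each line, all probe sets, only the 6 arrays compared and a stricter threshold. The block in a fit of only the 6 arrays compared was chosen after seeing the data.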

Additional observations from a re-analysis of the deposited data

How the results depend on the processing

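Counts of called genes moved with the processing, and no called gene reversed. Against primary lines 6 of the 31 genes were called, and 10 with quantile normalization again, 10 with each array centred on its median, 11 after dropping the dimmest genes, 2 when every probe set was tested, 2 when the fit held only those 6 arrays and 2 at an adjusted p under 0.01. In the same order the calls over all genes were 624, 803, 677, 828, 210, 197 and 157. Leaving out 1 line gave 2 to 6 of the 31, and 273 to 556 over all genes. Against lung lines 6 were called, and 0 with every probe set, 1 with only the 6 arrays and 0 at an adjusted p under 0.01, with 14, 15 and 16 at an unadjusted p under 0.05 in limma. Over all genes the calls were 395 in the main fit and 75, 107 and 66 in these 3 settings. Leaving out 1 line gave 0 to 6 of the 31, and 69 to 417 over all genes. The replicate block gave 8 and 6 calls, and besides the genes named above against lung lines it ended the call of Cdh1 against primary lines (0.0538), made calls there of Cldn4 (0.0346), Rab25 (0.0370) and Grhl2 (0.0482), and changed no other. Over all genes it called 839 against 624 and 566 against 395. With the block in a fit of only the 6 arrays compared, chosen after seeing the data, 1 gene (Cgn) was called against primary and 3 (Cgn, Cldn4 and Rab25) against lung lines, with 43 and 233 calls over all genes. There Cldn4 (0.140), Rab25 (0.0987) and Grhl2 (0.185) did not pass against primary lines, nor Esrp2 (0.0748), Grhl2 (0.0597) and Elf3 (0.0663) against lung lines. Over 12 calls and 18 alternatives each, 91 of 216 fell short of the threshold and none turned, and 10 of 81 uncalled differences passed in at least 1 alternative. Signs changed in at least 1 alternative for 33 of the 81. The causes were not tested. For lung against primary lines none of the 31 passed under any of the 18, with 1 to 5 at an unadjusted p under 0.05.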
